A study of Mus musculus with 40 samples.

Results

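The genes described here are 8 products of the uterine lining that oestrogen is known to induce: Ltf (lactotransferrin), Lcn2 (lipocalin 2), C3 (complement component 3), Clu (clusterin), Muc1 (mucin 1), Aqp5 (aquaporin 5), Car2 and Car12 (carbonic anhydrases 2 and 12). They were chosen by name, 8 of the 54532 genes in the deposited table, and were followed library by library through 40 bulk RNA-seq libraries of mouse uterus. All mice were prepubertal, at postnatal day 25 by the study's description. The 8 groups of 5 libraries were control (C), given PBS/saline, doxorubicin (D), an anthracycline that breaks DNA, at 3 mg/kg in 2 weekly doses, anti-Müllerian hormone (M), abbreviated AMH, at 0.75 mg/kg, and both agents together (DM), each taken 4 h or 24 h after treatment. The sources used here give neither the strain nor the dose from which the hours are counted. Libraries are called biological replicates in the labels, which do not say that each is 1 mouse, so p-values measure the spread between these libraries.

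Oestradiol bound to its receptor, the product of Esr1, makes the luminal and glandular epithelium of the uterus grow and fill the lumen with a protein-rich fluid. Lactotransferrin and lipocalin 2 in that fluid bind iron and iron-carrying siderophores and so hold back bacteria, C3 is the central protein of the complement cascade, and clusterin is a secreted chaperone that also blocks the terminal complement complex. Muc1 covers the apical cell surface and must be cleared before an embryo can attach, Aqp5 is a water channel, and the carbonic anhydrases interconvert carbon dioxide and bicarbonate, Car2 in the cytosol and Car12 at the cell membrane. Before puberty the ovary secretes little oestrogen, and AMH, made by ovarian granulosa cells, restrains follicle growth. The series asks how doxorubicin and AMH act on the prepubertal uterus.

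The 8 genes are spread over 6 chromosomes of mouse build mm10. Ltf (ENSMUSG00000032496) lies at chr9:111019271-111042767, plus strand. Car12 (ENSMUSG00000032373) lies on the same chromosome at chr9:66713686-66766845, plus strand. Lcn2 (ENSMUSG00000026822) lies at chr2:32384633-32388252, minus strand, and C3 (ENSMUSG00000024164) at chr17:57203970-57228136, minus strand, where it overlaps the microRNA gene Mir6978 on its own strand. Muc1 (ENSMUSG00000042784) lies at chr3:89229057-89233381 and Car2 (ENSMUSG00000027562) at chr3:14886273-14900770, both on the plus strand. Aqp5 (ENSMUSG00000044217) lies at chr15:99590782-99594829 and Clu (ENSMUSG00000022037) at chr14:65968483-65981547, both on the plus strand. All 8 are protein-coding genes, and the 7 other than C3 overlap no other gene of the table.

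Promoter windows of RefSeq (build GRCm38.p6, which is mm10) were matched to 6 of the 8 genes by symbol. The 250 bases before the RefSeq start site are shown for Lcn2, Muc1 and Car12, whose levels followed each other most closely across the libraries, for Ltf, the classical oestrogen target of the mouse uterus, and for C3, whose levels followed the other genes less. Each is written 5′ to 3′ on the gene's own strand, with capitals marking half-sites of the oestrogen response element (GGTCA on either strand) and the TATA box letters TATAAA. The windows are chr2:32387740-32387989 (minus strand) for Lcn2, chr3:89228806-89229055 (plus strand) for Muc1, chr9:66713436-66713685 (plus strand) for Car12, chr9:111019042-111019291 (plus strand) for Ltf and chr17:57228137-57228386 (minus strand) for C3. The RefSeq start sites of Lcn2, Ltf and Aqp5 lie inside the spans of these genes in the deposited table. The whole Lcn2 window, the end of the Ltf window and nearly all of the Aqp5 window (chr15:99590778-99591027, not shown) thus fall within those spans. The Aqp5 half-site given below lies inside its gene's span, and the Ltf half-site lies before it.
Lcn2: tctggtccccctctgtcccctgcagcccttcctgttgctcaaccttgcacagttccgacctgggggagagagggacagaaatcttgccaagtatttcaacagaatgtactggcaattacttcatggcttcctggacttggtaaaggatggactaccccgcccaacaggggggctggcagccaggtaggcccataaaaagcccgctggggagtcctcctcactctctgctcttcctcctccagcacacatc
Muc1: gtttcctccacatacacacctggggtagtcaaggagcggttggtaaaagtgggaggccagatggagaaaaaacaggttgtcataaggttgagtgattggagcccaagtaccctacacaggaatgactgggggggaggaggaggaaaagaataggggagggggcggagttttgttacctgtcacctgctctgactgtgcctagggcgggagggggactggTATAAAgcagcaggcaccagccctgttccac
Car12: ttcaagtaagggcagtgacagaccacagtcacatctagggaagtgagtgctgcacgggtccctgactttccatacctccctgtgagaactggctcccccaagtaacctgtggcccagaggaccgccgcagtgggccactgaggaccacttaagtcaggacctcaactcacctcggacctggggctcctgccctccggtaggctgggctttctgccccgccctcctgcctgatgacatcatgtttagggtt
Ltf: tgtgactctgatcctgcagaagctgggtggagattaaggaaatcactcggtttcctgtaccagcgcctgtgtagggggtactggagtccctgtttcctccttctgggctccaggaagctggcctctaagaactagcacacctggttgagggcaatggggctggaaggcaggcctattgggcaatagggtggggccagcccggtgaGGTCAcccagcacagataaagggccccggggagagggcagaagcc
C3: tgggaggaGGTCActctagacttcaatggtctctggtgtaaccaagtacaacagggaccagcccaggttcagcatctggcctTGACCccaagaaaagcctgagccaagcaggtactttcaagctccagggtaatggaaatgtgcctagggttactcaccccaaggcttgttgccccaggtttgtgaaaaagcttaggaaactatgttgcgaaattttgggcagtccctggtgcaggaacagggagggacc

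The Lcn2, Muc1 and Car12 windows hold no half-site, and the Muc1 window holds TATAAA beginning 31 bases before the start site. The half-site begins 45 bases before the start site in Ltf, 90 before it in Aqp5, and 242 and 168 before it in C3. Over the 300-base windows, which run 50 bases past the start site, a half-site was found in 3 of the 6 genes and in 40.5% of 32841 mouse promoters. TATAAA was found in 2 of the 6, in C3 only after the start site, and in 13.6% of all. The full palindrome GGTCANNNTGACC, which contains a half-site at each end, was in 23 of the 32841 windows and in 0 of the 6. The AP-1 letters TGANTCA (7.81% of all windows), an NF-kB motif (4.51%) and the C/EBP letters TTGCGCAA (0.183%) were also in 0 of the 6. Such matches describe the letters of these windows, and binding was not measured.

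Reads in genes, rebuilt from the deposited FPKM values (fragments per unit of gene length and of library size), ranged from 16251563 to 27391049 per library. All 8 genes were above 1 FPKM in all 40 libraries, and the lowest value of any of them rested on 153 reads, for Lcn2, so counting error is small beside the spread between libraries. The uterine epithelium was present throughout: 15 of 15 markers fixed for it were measured, with summed levels between 461.5 and 2559 FPKM. Esr1 itself varied little, from 36.2 to 52.9 FPKM over the 40 libraries, whereas the second oestrogen receptor Esr2 and the aromatase Cyp19a1 were below the filter on low values. Ltf and Lcn2 are also stored in neutrophil granules. The summed level of 12 neutrophil markers ran from 0.763 to 17.8 FPKM over the libraries, and 7 of the 12 were below the filter. In the highest library of each, the granule genes Ngp, Camp, Mpo and Elane reached 1.05, 0.745, 0.557 and 0.278 FPKM, and Ly6g 8.75, S100a9 6.02, Chil3 5.11, Mmp8 4.38, S100a8 2.62 and Csf3r 2.15 FPKM. The mean log2 score of the 5 tested neutrophil markers correlated with Ltf at 0.56, Clu at 0.53, C3 at 0.50 and Lcn2 at 0.35 over the 40 libraries, and at 0.64, 0.51, 0.51 and 0.37 without the high-oestrogen libraries defined next. The part of neutrophils in the levels of these genes was not tested.

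Some libraries stand apart in ways that touch these genes. A score was taken as the mean log2(FPKM + 1) of 22 other oestrogen-responsive genes, none of them among the 8, and 5 libraries exceeded the 40-library median by more than 0.6: C 24 h replicates 1, 2 and 4 (1.50, 2.12 and 1.12 above), D 24 h replicate 1 (0.67 above) and M 24 h replicate 3 (1.14 above). The score is built from genes of the same kind as those described, so it marks the libraries and is no independent test of them. Fits without these libraries keep C 24 h replicates 3 and 5 as the 24 h controls. A 24 h call lost in such a fit is therefore no sign of a lost effect. The shares of all genes called in those fits are not given here. Markers of oviduct and ciliated cells were high, by more than 1 on the same scale, in C 4 h replicate 4, D 4 h replicates 3 and 4, DM 4 h replicate 5, D 24 h replicates 3, 4 and 5 and DM 24 h replicate 4. Their summed level reached 1031 FPKM in DM 4 h against a lowest value of 6.38 FPKM in D 4 h.

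**Figure D1:**
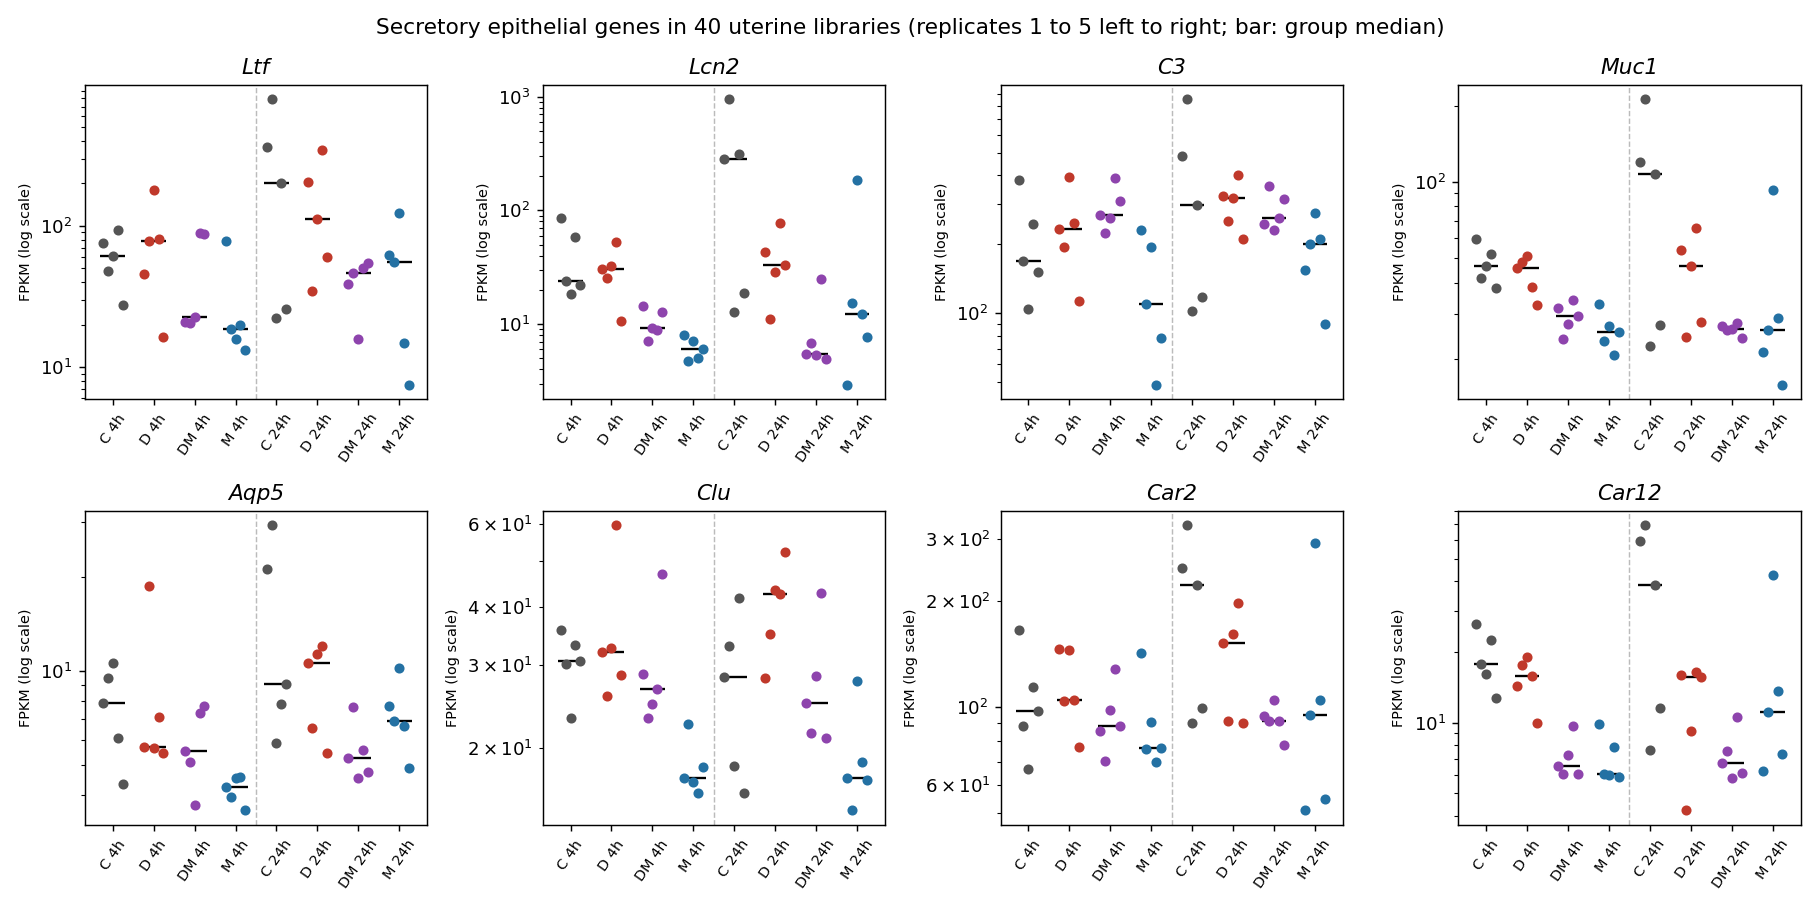
Level of each of the 8 genes (FPKM, log axis) in every library, by treatment and time, with replicates 1 to 5 from left to right and a bar at each group's median. C 24 h replicates 1, 2 and 4 stand high for Lcn2, Muc1, Car2 and Car12, the M 4 h libraries lie below all C 4 h libraries for Lcn2, Muc1, Clu and Car12, and M 24 h replicate 3 is the highest of its group for all 8 genes.

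Control uteri at 24 h held the highest mean for 7 of the 8 genes and also the widest spread. Lcn2 averaged 315 ± 381 FPKM (SD, n = 5) in C 24 h and 6.19 ± 1.40 FPKM in M 4 h, the lowest of the 8 groups. Over single libraries Lcn2 ranged 323-fold, from 2.94 to 949 FPKM, and Ltf 105-fold, from 7.52 to 789 FPKM. C3 ranged 17.6-fold (48.9 to 858 FPKM), Car12 16.5-fold (4.22 to 69.6), Muc1 13.4-fold (15.8 to 212), Aqp5 8.19-fold (3.58 to 29.3), Car2 6.43-fold (51.0 to 328) and Clu 4.06-fold (14.7 to 59.8). C 24 h replicate 2 was the highest library for every gene but Clu, which was highest in D 4 h replicate 4. When the 8 group means of each gene were put in order, 2 of 56 neighbouring pairs differed by more than the larger of their SDs: Lcn2 between D 4 h and DM 4 h, and Aqp5 between DM 24 h and M 4 h.

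The order of the group means is given as a description, since most neighbouring means lay within their spread. For Lcn2 the means ran from C 24 h through M 24 h (44.6 ± 78.5 FPKM), C 4 h (41.8 ± 29.6), D 24 h (38.6 ± 24.4), D 4 h (30.3 ± 14.9), DM 4 h (10.5 ± 2.96) and DM 24 h (9.53 ± 8.74) to M 4 h. Muc1 went from 97.6 ± 77.8 FPKM in C 24 h to 26.2 ± 1.28 in DM 24 h and 25.9 ± 4.54 in M 4 h. Car12 went from 37.3 ± 27.7 FPKM in C 24 h to 7.36 ± 1.94 in DM 24 h, 7.12 ± 1.73 in M 4 h and 7.10 ± 1.51 in DM 4 h. These 3 genes thus had DM 4 h, DM 24 h and M 4 h, each of them a group given AMH, as their 3 lowest groups. The same 3 groups were the lowest for Ltf, Aqp5 and Car2. The other group given AMH, M 24 h, was not among them. The step up to the next group exceeded the larger SD for Lcn2 (19.8 against 14.9 FPKM). It did not for Muc1 (7.64 against 31.7 FPKM), Car12 (4.94 against 5.41 FPKM), Ltf, Aqp5 or Car2. C3 differed, with DM 4 h and DM 24 h (290 ± 63.3 and 282 ± 53.8 FPKM) above control at 4 h (210 ± 109) and M 4 h (133 ± 77.7) and M 24 h (186 ± 68.9) last. Clu had its highest mean in D 24 h (40.3 ± 9.17 FPKM) and its lowest in M 24 h (19.1 ± 5.03) and M 4 h (18.2 ± 2.54).

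AMH alone went with lower levels of these genes 4 h after treatment. Lcn2, Car12 and Clu fell, and all 8 genes had a log2 change below 0 against control. For Lcn2 the control libraries held 86.1, 24.0, 18.4, 58.6 and 22.0 FPKM and the AMH libraries 8.04, 4.73, 7.08, 4.99 and 6.10 FPKM. Every AMH library was thus below every control library. Lcn2 fell by 2.33 ± 0.83 (SE) on the log2(FPKM + 1) scale (limma adjusted p = 0.044), which understates changes of genes with low values.

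Car12, the membrane carbonic anhydrase, held 26.4, 17.7, 16.1, 22.4 and 12.7 FPKM in the controls and 9.86, 6.05, 6.0, 7.84 and 5.87 FPKM with AMH. Again the 2 groups did not overlap, and Car12 fell by 1.29 ± 0.43 (limma adjusted p = 0.032). Clu, the secreted chaperone, held 35.7, 30.2, 23.1, 33.2 and 30.6 FPKM in the controls and 17.2, 22.5, 16.9, 16.0 and 18.2 FPKM with AMH. The lowest control library lay just above the highest AMH library, and Clu fell by 0.72 ± 0.23 (limma adjusted p = 0.028).

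Muc1 showed the same separation without passing the test. Its control libraries held 59.2, 41.5, 46.6, 51.7 and 38.1 FPKM and its AMH libraries 32.8, 23.5, 27.0, 20.7 and 25.5 FPKM, and the log2 change was -0.85 ± 0.40 (limma adjusted p = 0.12). Aqp5 had a log2 change of -0.70 ± 0.31 (adjusted p = 0.099), C3 of -0.74 ± 0.44 (0.22), Ltf of -1.26 ± 0.80 (0.26) and Car2 of -0.21 ± 0.35 (0.70). The Ltf value holds 1 library apart: M 4 h replicate 1 stood at 77.6 FPKM, among the controls, and the other 4 between 13.2 and 20.0 FPKM, below every control.

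Of the 8 genes 3 were called lower in that comparison, where 10.9% of 16226 genes tested were called lower and 20.0% in either direction. The groups did not overlap, with AMH lower, for 4 of the 8 genes against 13.0% of all genes. The median log2 change of the 8 genes was -0.79, and of all genes 0.01. The calls depended on single libraries and on the libraries pooled for the spread. Voom called 2, Car12 and Clu (adjusted p = 0.027 for each), and not Lcn2 (0.073). Without a filter on low values 0 were called. The limma count was 0 without C 4 h replicate 1, 2 or 4 or M 4 h replicate 3, 1 without M 4 h replicate 1, 2, 4 or 5, and 1 (Clu) without the high-oviduct libraries, where Lcn2 had adjusted p = 0.11 and Car12 0.089. It was 6 when the fit held only these 2 groups, with Muc1 (adjusted p = 0.00095), Aqp5 (0.013) and Ltf (0.048) then also called. The 5 high-oestrogen libraries are all 24 h libraries, so leaving them out changed only the spread the fit pools, and 5 genes were then called.

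Markers of other cells moved with this comparison. The summed neutrophil markers ran from 1.88 to 5.18 FPKM in C 4 h and from 1.08 to 1.63 FPKM in M 4 h, so these groups did not overlap, and 0 of the 5 tested were called. Of 15 uterine epithelium markers 0 were called (median log2 change -0.18), and the summed level of the list ran from 770.6 to 1049 FPKM in C 4 h and from 668.7 to 999.3 FPKM in M 4 h. Of 4 mesothelium markers 2 were called lower, Upk3b (log2 change -1.62) and Lrrn4 (-1.68), and the list's summed level ran from 17.9 to 81.1 FPKM in C 4 h and from 5.86 to 36.3 FPKM in M 4 h. Of 6 smooth muscle markers 2 were called lower (median log2 change -0.35). The part of neutrophil, mesothelial, muscle or epithelial content in these changes was not tested. In bulk tissue, fewer cells of a type and less RNA per cell cannot be told apart.

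**Figure D2:**
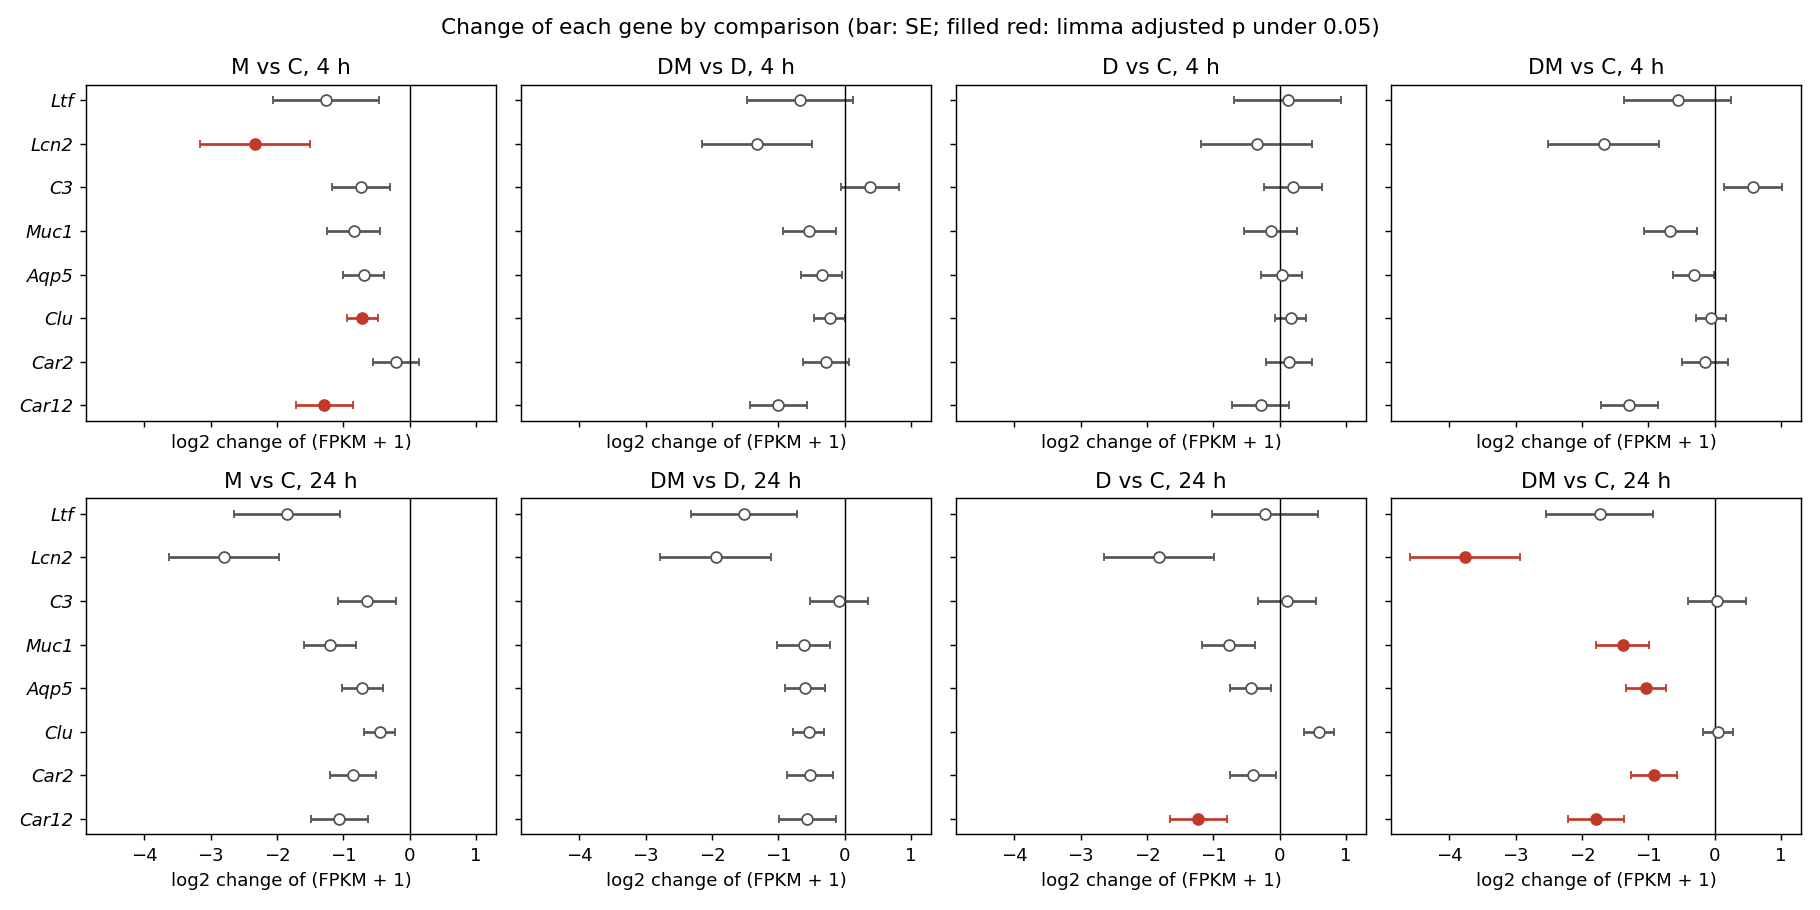
Log2 change of (FPKM + 1) of each gene for 4 comparisons at 4 h (top) and 24 h (bottom), with bars for the SE, and red filled points where the limma adjusted p is under 0.05. Points lie left of 0 for all 8 genes in M against C at both times, and 5 points are red in DM against C at 24 h.

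The 2 agents together were set against doxorubicin alone and against control. Against doxorubicin alone, limma called 0 of the 8 genes lower or higher in DM 4 h, 1 had an unadjusted p under 0.05, and the voom test on rebuilt reads also called 0. In this comparison 0.00616% of all genes were called. Car12 was the 1 gene whose groups did not overlap, where 0.764% of all genes did not overlap with DM lower. It held 14.3, 17.6, 19.0, 15.8 and 9.92 FPKM in D 4 h and 6.55, 6.04, 7.25, 9.65 and 6.01 FPKM in DM 4 h (log2 change -1.0 ± 0.43, limma adjusted p = 0.71).

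Against control, DM 4 h again gave 0 calls by limma, 1 unadjusted p under 0.05 and 0 calls by voom, in a comparison where 0.394% of genes were called. The groups did not overlap, with DM lower, for Lcn2, Muc1 and Car12, 3 of the 8 against 3.57% of all genes. Lcn2 held 14.3, 7.17, 9.33, 8.85 and 12.8 FPKM in DM 4 h (log2 change -1.67 ± 0.83, limma adjusted p = 0.29). Muc1 held 31.6, 23.9, 27.5, 34.1 and 29.6 FPKM there, below the lowest control at 38.1 FPKM (log2 change -0.67 ± 0.40, adjusted p = 0.36). Car12 had a log2 change of -1.29 ± 0.43 (adjusted p = 0.14). These 3 genes were called when the fit held only the groups compared (adjusted p of 0.043, 0.026 and 0.014) and when the high-oestrogen libraries were left out. C3 had a change above 0 (0.58 ± 0.44, adjusted p = 0.48), and its DM libraries ran from 223 to 389 FPKM against 104 to 383 FPKM in the controls. The comparisons of M and of DM with control share their control libraries, so their values are set side by side and are not 2 independent results.

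With doxorubicin alone, none of the 8 genes passed the test against control at 4 h. Limma called 0 of 8, 0 had an unadjusted p under 0.05, voom called 0, and 0.493% of all genes were called. Log2 changes lay on both sides of 0 (5 above and 3 below, median 0.08). For Ltf the D libraries held 45.9, 77.7, 179, 80.6 and 16.3 FPKM, a wider range than the controls' 27.7 to 92.9 FPKM on both sides. Aqp5 was between 5.46 and 7.10 FPKM in 4 of the D libraries and at 18.7 FPKM in replicate 2. That library also held the highest score for squamous epithelium markers, 6.49, and the part of such tissue in the Aqp5 value was not tested. Clu was at 59.8 FPKM in D 4 h replicate 4, a high-oviduct library, and between 25.8 and 32.7 FPKM in the other 4.

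At 24 h the controls split. Lcn2 held 281, 949, 12.7, 316 and 18.6 FPKM in C 24 h replicates 1 to 5, and Ltf 362, 789, 22.4, 201 and 26.0 FPKM. Replicates 1, 2 and 4 were high and replicates 3 and 5 low for both. The same division held for Muc1 (120, 212, 22.4, 107 and 27.1 FPKM) and for Car12 (59.2, 69.6, 7.64, 38.7 and 11.5 FPKM). For Car2 the 3 high libraries ran from 221 to 328 FPKM and the 2 low ones stood at 90.0 and 99.3 FPKM, and for C3 the same libraries ran from 297 to 858 FPKM against 102 and 118 FPKM. Aqp5 was highest in replicates 1 and 2 (21.2 and 29.3 FPKM), with replicate 4 at 7.85 FPKM between the low pair. For Clu the 3 ran from 28.3 to 41.8 FPKM against 18.3 and 16.0 FPKM. The summed epithelium markers ran from 739.2 to 2559 FPKM in this group, wider than in any other group, and what part of the split is epithelial content was not tested.

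**Figure D3:**
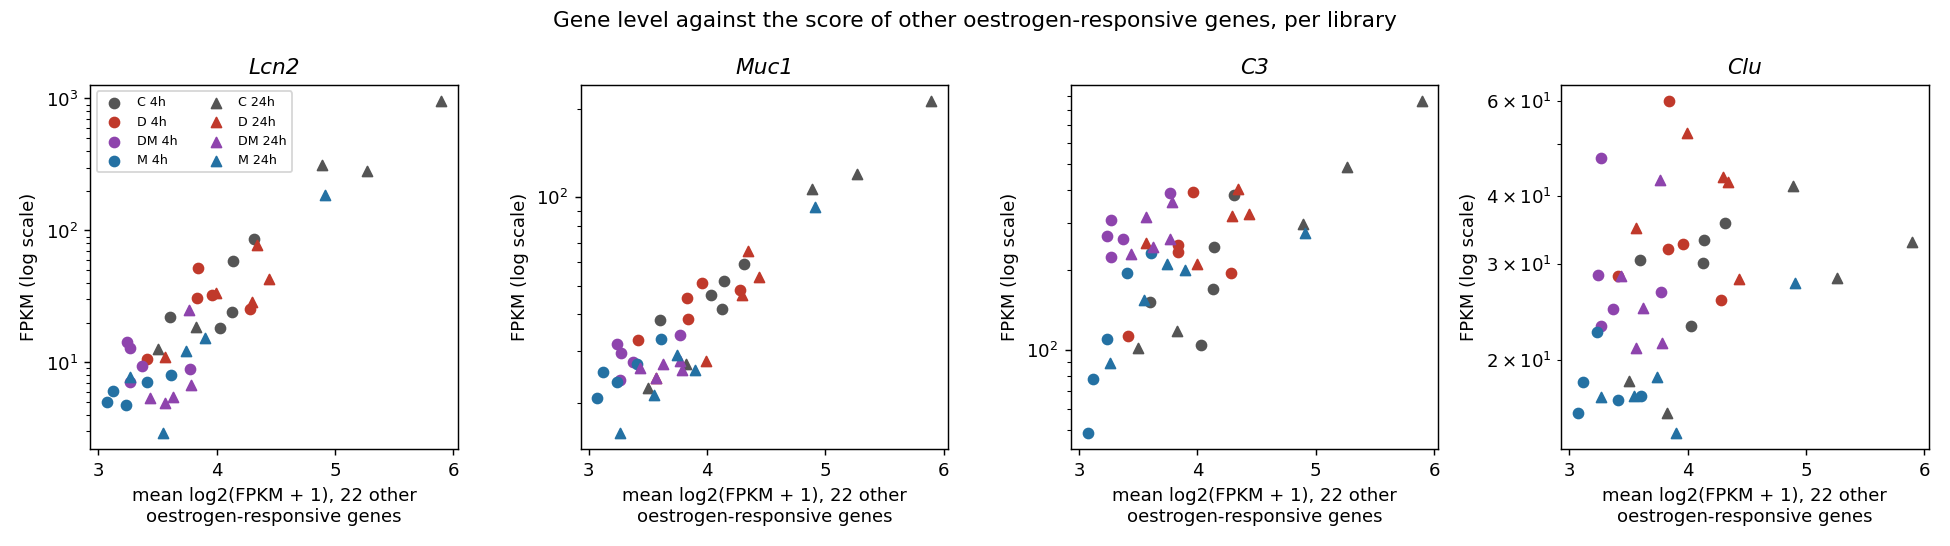
Level of Lcn2, Muc1, C3 and Clu (FPKM, log axis) in each of the 40 libraries against the mean log2(FPKM + 1) of 22 other oestrogen-responsive genes, with colours for treatment, circles for 4 h and triangles for 24 h. Lcn2 and Muc1 rise along the whole range of the score (Pearson r of 0.92 and 0.93), C3 less closely (0.64), and Clu is scattered (0.37).

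Against these controls, DM 24 h was lower for 5 of the 8 genes: Lcn2, Car12, Muc1, Aqp5 and Car2. Lcn2 held 5.51, 6.77, 5.35, 25.1 and 4.90 FPKM and fell by 3.76 ± 0.83 (limma adjusted p = 0.0017), with 4 of the 5 DM libraries below the lowest control. Car12 held 6.75, 7.55, 5.79, 10.6 and 6.09 FPKM and fell by 1.79 ± 0.43 (limma adjusted p = 0.0030). Muc1 held 27.0, 25.9, 26.3, 27.6 and 24.2 FPKM and fell by 1.39 ± 0.40 (limma adjusted p = 0.0091). All 5 Muc1 values lay near the 2 low control libraries, 1 of which was lower than all of them.

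Aqp5 fell by 1.04 ± 0.31 (limma adjusted p = 0.011), with DM libraries from 4.55 to 7.67 FPKM against 5.88 to 29.3 FPKM. Car2 fell by 0.92 ± 0.35 (adjusted p = 0.038), with DM libraries from 77.9 to 105 FPKM against 90.0 to 328 FPKM. The Car2 call was lost with voom (adjusted p = 0.062), without a filter (0.078), with only the 2 groups in the fit (0.090) and on leaving out the libraries rich in oviduct markers (0.066). The call was kept in 4 of the 10 fits that left out 1 library, and lost without C 24 h replicate 1, 2 or 4 or DM 24 h replicate 1, 2 or 5 (highest adjusted p 0.15). Ltf did not pass (log2 change -1.73 ± 0.80, adjusted p = 0.088), and C3 (0.03 ± 0.44) and Clu (0.05 ± 0.23) had values near 0. In this comparison 18.6% of genes were called lower and 34.3% either way, and the median log2 change was -1.21 for the 8 genes. The calls were lost when the high controls were left out. Those controls were picked by a score that follows most of these genes, so smaller changes are what that choice selects for. Without C 24 h replicates 1, 2 and 4 and the other 2 high-oestrogen libraries 0 of the 8 were called, Lcn2 had a log2 change of -0.92 (adjusted p = 0.61), Car12 of -0.34 (0.76), Aqp5 of -0.36 and Car2 of -0.05 (0.97). Muc1 (0.083, adjusted p = 0.94) and Ltf (0.63, 0.83) then had values above 0, as did C3 (1.34) and Clu (0.62), so the 8 lay 4 above and 4 below 0 with a median of 0.02. Without C 24 h replicate 1 or 2 alone, 3 and 2 genes were called. A fit with only the 2 groups called 0, and voom called 4. Among markers of cell types in the same comparison, 1 of 5 for neutrophils was called lower (Ly6g, -1.46), 6 of 15 for uterine epithelium were called lower (median log2 change -0.57, summed level 673.1 to 901.5 FPKM in DM 24 h), and 6 of 6 for smooth muscle (median -0.77, summed level 2058 to 2418 FPKM in DM 24 h and 3314 to 5367 FPKM in C 24 h). Their part in the lower levels was not tested.

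AMH alone at 24 h had all 8 log2 changes below 0 against control, with a median of -0.96, and passed the test for none. Limma called 0, 6 had an unadjusted p under 0.05, voom called 0, and 0.462% of all genes were called. Lcn2 held 2.94, 15.3, 185, 12.3 and 7.70 FPKM in M 24 h (log2 change -2.80 ± 0.83, limma adjusted p = 0.097). Replicate 3, one of the high-oestrogen libraries, stood far above the others, as it did for Muc1 (93.0 against 15.8 to 29.0 FPKM), Car2 (291 against 51.0 to 105 FPKM) and Car12 (42.6 against 6.20 to 13.6 FPKM). Without that library 4 of the 8 were called, without C 24 h replicate 3 6 were, and without C 24 h replicate 5 2 were. With array weights, which give libraries far from their group less weight, 7 were called, C3 being the exception. Without all 5 high-oestrogen libraries 0 were called and the median was -0.08. Lcn2 then had a log2 change of -0.82 and Car2 of -0.37. Ltf (0.06) and C3 (0.50) lay above 0, and Muc1 (-0.13), Aqp5 (-0.16), Clu (-0.02) and Car12 (-0.04) near it. The score that picked the libraries left out correlated with these genes, from 0.37 for Clu to 0.93 for Muc1. Changes nearer 0 are thus what that choice selects for, and they are no separate result on the direction.

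Doxorubicin alone at 24 h gave 1 call, Car12, which held 15.9, 4.22, 9.18, 16.5 and 15.7 FPKM and fell by 1.22 ± 0.43 (limma adjusted p = 0.044) in a comparison where 18.4% of genes were called and 9.95% were called lower. Voom did not call it (-1.15, adjusted p = 0.055). The median log2 change of the 8 genes was -0.42, and Lcn2, at 43.2, 11.0, 28.7, 77.0 and 33.4 FPKM, had a change of -1.82 ± 0.83 (adjusted p = 0.11). Ltf held 204, 34.5, 111, 344 and 60.0 FPKM, within the range of the controls (log2 change -0.22 ± 0.80, adjusted p = 0.86). The direction changed when the high-oestrogen libraries were left out. Without them the controls left were C 24 h replicates 3 and 5, which are low for most of these genes. Changes further above 0 are thus what that choice selects for. All 8 log2 changes were then above 0, with a median of 0.77, and Clu alone was called. Ltf then had a log2 change of 1.93 (adjusted p = 0.38), C3 of 1.39 (0.23), Lcn2 of 0.93 (0.61), Muc1 of 0.60 (0.36), Car2 of 0.42 (0.68), Aqp5 of 0.17 (0.90) and Car12 of 0.10 (0.95). The 6 smooth muscle markers were all called lower in D 24 h with all libraries in the fit (median log2 change -0.93), and their part in these values was not tested.

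Clu had the larger of the 2 changes above 0 after doxorubicin at 24 h, the other being C3 (0.11 ± 0.44). Clu held 28.2, 35.0, 43.5, 42.5 and 52.4 FPKM in D 24 h against 28.3, 33.0, 18.3, 41.8 and 16.0 FPKM in C 24 h, with a log2 change of 0.59 ± 0.23 (limma adjusted p = 0.065). It passed with voom (0.75, adjusted p = 0.023) and without the high-oestrogen libraries (1.28, adjusted p = 0.013). The latter fit kept as controls C 24 h replicates 3 and 5, the lowest for Clu at 18.3 and 16.0 FPKM. It also left out D 24 h replicate 1, the lowest of its group at 28.2 FPKM. Its larger change thus follows from which libraries were kept. D 24 h replicates 3, 4 and 5, the 3 highest for Clu, are the high-oviduct libraries of the group, and without the high-oviduct libraries the change was 0.27 (adjusted p = 0.46). In this comparison 8.44% of all genes were called higher. In the oviduct list 1 of 12 tested markers was called higher in D 24 h, and the summed level of its 13 genes ran from 11.4 to 422.6 FPKM there and from 10.4 to 38.4 FPKM in C 24 h.

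Between doxorubicin with and without AMH at 24 h, all 8 log2 changes were below 0 (median -0.58). Limma called 0, 2 had an unadjusted p under 0.05, voom called 0, and 0.333% of all genes were called. Those 2 were Lcn2 (-1.95 ± 0.83, adjusted p = 0.33), with 4 of 5 DM libraries below every D library, and Clu (-0.54 ± 0.23, adjusted p = 0.33). Array weights called Lcn2 (adjusted p = 0.0047), Muc1 (0.034) and Clu (0.012). The Lcn2 library of DM 24 h that was not low, replicate 4 at 25.1 FPKM, was also the highest of its group for Clu (42.9 FPKM) and Car12, and is a high-oviduct library.

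None of the 8 genes passed the test between the times. Limma called 0 of the 8 between 24 h and 4 h in each of the 4 treatments, and voom also called 0 in each. An unadjusted p was under 0.05 for 3 genes in C (Lcn2, Aqp5 and Car2, with a median log2 change of 0.62 over the 8), for 1 in M (Aqp5) and for 0 in D and DM. The shares of all genes called were 7.32% in C, 1.58% in D, 0.0740% in DM and 4.01% in M. In C 7 of the 8 changes were above 0 with the whole group, and without the high-oestrogen libraries all 8 were below 0, with a median of -0.85. Muc1 was then called lower at 24 h (-0.90, adjusted p = 0.046), where the whole group gave 0.57 ± 0.40 (adjusted p = 0.40). That fit kept C 24 h replicates 3 and 5, at 22.4 and 27.1 FPKM for Muc1. The score that set the other C 24 h libraries apart correlated with Muc1 at 0.93. Lower levels at 24 h are thus what that choice selects for, and the call is no separate result. The other values without those libraries were -1.19 for Ltf, -1.12 for Lcn2, -0.80 for C3, -0.79 for Clu, -0.91 for Car12, -0.11 for Car2 and -0.00 for Aqp5. The difference of each treatment's effect between the times was tested as well: limma called 0 of the 8 for doxorubicin, for AMH alone and for AMH with doxorubicin, with 0 unadjusted p under 0.05 in each and 0 calls by voom. Array weights called 1 gene for doxorubicin. Of all genes, 0.0123%, 0.154% and 0% were called in these 3 tests.

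Across the 40 libraries Lcn2, Muc1 and Car12 followed each other most closely, and Clu followed the other genes least. The values that follow are Pearson correlations of log2(FPKM + 1), given as a description, since libraries of a group share a treatment and genes of 1 tissue share its cell content. Lcn2 correlated with Muc1 at 0.93 and with Car12 at 0.93, Muc1 with Car12 at 0.91 and with Car2 at 0.89. Without the 5 high-oestrogen libraries the first 3 values were 0.81, 0.84 and 0.78. Aqp5 and Clu had the lowest value of any pair over the 40 libraries, 0.26. C3 and Aqp5 lay between: C3 correlated with Ltf at 0.74 and with Car12 at 0.47, and Aqp5 with Muc1 at 0.75 and with Car2 at 0.60. The order depended on the libraries used. Clu and Lcn2 correlated at 0.53, and at 0.66 without the high-oestrogen libraries, where Aqp5 and Lcn2 correlated at 0.48.

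**Figure D4:**
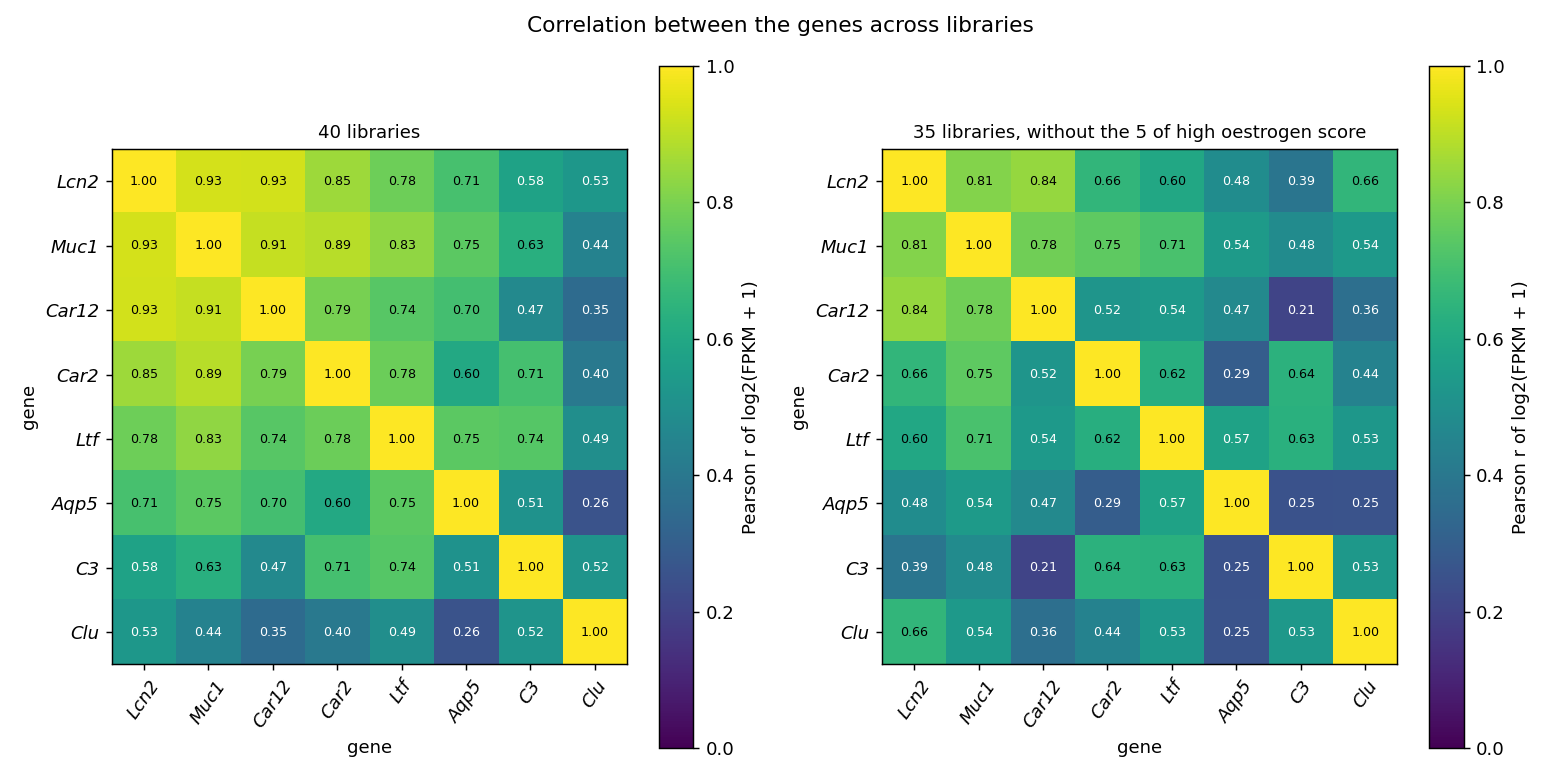
Pearson correlation of log2(FPKM + 1) between each pair of the 8 genes, over all 40 libraries (left) and over the 35 left without the high-oestrogen libraries (right), with the value in each square. Lcn2, Muc1, Car12 and Car2 form the bright block, and the row of Clu holds no value above 0.53 on the left apart from its own square.

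The genes also differed in what they followed outside the set. With the score of 22 other oestrogen-responsive genes, Muc1 correlated at 0.93, Lcn2 at 0.92, Car12 at 0.92, Ltf at 0.85, Car2 at 0.85, Aqp5 at 0.84, C3 at 0.64 and Clu at 0.37. Without the high-oestrogen libraries, which that score defined, the values were 0.78, 0.77, 0.80, 0.74, 0.64, 0.74, 0.48 and 0.42 in the same order. With the uterine epithelium score they were 0.87 for Muc1, 0.75 for Lcn2, 0.73 for Car12, 0.84 for Ltf, 0.86 for Car2, 0.74 for Aqp5, 0.70 for C3 and 0.38 for Clu over all 40 libraries, and 0.78, 0.50, 0.46, 0.74, 0.74, 0.53, 0.57 and 0.40 over the 35. Clu correlated more with the oviduct and ciliated marker score (0.68, and 0.74 without the high-oestrogen libraries), and C3 with the mesothelium score (0.72, and 0.81). Aqp5 correlated with the squamous marker score at 0.41, and at 0.62 without the high-oestrogen libraries. The protein-coding genes most like each member over the 40 libraries were found by the same measure. They were Rnpep (0.96), Gsr and Fut2 for Lcn2, and Muc20 (0.97), Slc44a4 and Ckmt1 for Muc1. Clint1 (0.94), Myb and Fut2 came first for Car12, and Ahcyl2 (0.92), Slc28a3 and Plpp2 for Car2. Atp10b (0.91), Krt19 and Slc28a3 came first for Ltf, and Wnt7b (0.89), Padi3 and Spink12 for Aqp5. The closest genes were further off for Clu, with Mlf1 at 0.83, Basp1 and Elof1, and for C3, with Cxadr at 0.80, Krt19 and Tnfrsf1b.

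Of 22 other oestrogen-responsive genes tested, 4 were called lower and 0 higher in M against C at 4 h (median log2 change -0.68), where 10.9% of all genes were called lower and 9.13% higher. Among the 4 were Padi2, which makes citrulline in proteins (-1.94 ± 0.49, limma adjusted p = 0.0083), Inhbb, a subunit of inhibins and activins (-1.67 ± 0.43, 0.0094), and Gjb2, a gap junction protein (-1.44 ± 0.47, 0.030). In M against C at 24 h 1 was lower, the oxytocin receptor Oxtr (-1.35 ± 0.31, adjusted p = 0.042). In DM against C at 24 h 10 were lower and 1 higher (18.6% and 15.7% of all genes), and in D against C at 24 h 3 were lower and 1 higher (9.95% and 8.44% of all genes). The C 24 h controls include 3 libraries set apart by the score of this same list. Without the high-oestrogen libraries 0 were lower and 1 higher in each of these 2 comparisons, and 0 of the 22 were called in M against C at 24 h. Limma called 0 of the 22 in DM against D at either time. In M against C at 4 h the progesterone receptor gene Pgr (-0.00 ± 0.15, adjusted p = 0.99) and Greb1 (-0.09 ± 0.19, adjusted p = 0.78) did not pass. Of the receptors, Esr1 had a log2 change of -0.06 ± 0.08 there (adjusted p = 0.64), and Gper1, the membrane oestrogen receptor, rose by 0.67 ± 0.19 (adjusted p = 0.016).

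The families of the 8 genes gave mixed counts, to be read against the same shares of all genes. Of 8 other carbonic anhydrases tested, 2 rose and 0 fell in M against C at 4 h, where Car12 fell: the membrane-anchored Car4 (1.32 ± 0.41, limma adjusted p = 0.022) and Car8 (0.95 ± 0.32, adjusted p = 0.034). At 24 h in DM against C 4 rose and 1 fell, again with Car4 (1.35 ± 0.41, adjusted p = 0.013) and Car8 (1.12 ± 0.32, adjusted p = 0.0092) higher. Of 4 other aquaporins tested, 1 rose in M against C at 4 h, Aqp11 (0.51 ± 0.16, adjusted p = 0.027), and 2 in DM against C at 24 h, Aqp11 and the water channel of vessels, Aqp1 (0.83 ± 0.25, adjusted p = 0.011), where Aqp5 fell. Of 6 mucin and secretion genes tested, 3 fell in DM against C at 24 h, among them the membrane mucins Muc4 (-1.93 ± 0.45, adjusted p = 0.0024) and Muc20 (-1.49 ± 0.42, adjusted p = 0.0088), and Muc4 fell in D against C at 24 h (-1.36 ± 0.45, adjusted p = 0.035). Limma called 0 genes of these 3 families in DM or D against C at 24 h once the high-oestrogen libraries were left out.

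Of 17 other complement genes tested, 5 rose and 0 fell in D against C at 24 h, where 8.44% of all genes were called higher and C3 did not pass the test. Among the 5 were the classical pathway component C4b (1.38 ± 0.28, limma adjusted p = 0.0021), the protease C1ra (0.74 ± 0.21, adjusted p = 0.019) and its inhibitor Serping1 (0.58 ± 0.17, adjusted p = 0.021). The receptor for the C3a fragment, C3ar1, also rose (0.78 ± 0.20, adjusted p = 0.010), while C3 itself held 324, 253, 318, 402 and 210 FPKM against 486, 858, 102, 297 and 118 FPKM (0.11 ± 0.44, adjusted p = 0.87). C4b was the 1 complement gene called without the high-oestrogen libraries (1.85, adjusted p = 0.016), and C1ra (0.02), Serping1 (0.18) and C3ar1 (0.72) were not. The controls in that fit were C 24 h replicates 3 and 5. In M against C at 4 h 3 of the 17 rose, C1ra among them (0.66 ± 0.21, adjusted p = 0.028), where 9.13% of all genes were called higher. In DM against C at 24 h 3 of the 17 rose and 1 fell, where 15.7% of all genes were called higher and 18.6% lower. Of those calls at 24 h, 0 were kept without the high-oestrogen libraries. Of 6 receptors of the secreted members tested, C3ar1, also counted among the complement genes, was the 1 called with doxorubicin alone at 24 h. In DM against C at 24 h 1 of the 6 rose and 1 fell, to be read against the same shares. They were Slc22a17, a receptor for lipocalin 2 (0.73 ± 0.23, adjusted p = 0.016), and Itgam, an integrin subunit of a complement receptor (-0.78 ± 0.26, adjusted p = 0.020). Neither was called without the high-oestrogen libraries (0.06 and -0.07).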

How the data were processed

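Uterine total RNA was isolated with a Qiagen kit and sequenced as libraries made by Novogene, per the labels' protocols. The authors deposited their FPKM values in a single file, beside gene names, coordinates and lengths, as the file headers show. The submitters' processing notes name build mm10. Aligner, counting program, annotation and strand setting: not given in the sources used here. All value columns matched a sample by name.

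FPKM was multiplied by gene length and divided by the smallest non-zero product of each library, taken as a single read. This gave whole reads for 100% of the lower values, which alone were checked (tolerance 0.01). These rebuilt reads served the voom alternative. Within groups the lowest Pearson correlation was 0.8748 and the lowest chi-square per degree of freedom 8.95, so no library is a copy of another. The filter asked for 1 FPKM in 5 libraries and kept 16226 of 54532 genes. The log2(FPKM + 1) values were fitted with limma 3.58.1 (R 4.3.3, data.table, version 1.17.8), with an intensity trend and all 8 groups in 1 fit. P-values were two-sided and Benjamini-Hochberg adjusted over all genes in each of the 15 comparisons, and those under 0.05 were called. The pipeline was tested on simulated data. Plots used matplotlib 3.10.9 (Python 3.11.15).

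Each alternative changed 1 step: no filter or one at 5 FPKM, 0.1 as pseudocount, scaling by median of ratios, a fit of the compared groups only, array weights, replicate number as a block, voom, and leaving out single libraries, the high-oestrogen libraries or the high-oviduct libraries. All 8 genes are described. Other genes were named by rule: the 3 protein-coding genes most correlated with each member, and up to 4 genes of each list, first those called in the most comparisons, then by mean level, with Esr1, Esr2, Pgr and Greb1 free to be named. Outside that rule, Ngp, Camp, Mpo, Elane, Mmp8, S100a8 and Cyp19a1 were named after their values were seen. The counts of list genes without the high-oestrogen or high-oviduct libraries were added after the data were seen. The members and lists were chosen with earlier results of these data known.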

Additional observations from a re-analysis of the deposited data

Results flagged for a closer look

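In 9 of the 64 sets of 5 libraries (8 genes in 8 groups), 1 library stood further from the rest than Dixon's 95% limit for 5 values allows. Chance alone marks about 1 such set in 20 where values follow a normal distribution and the sets are independent. Here the limit was applied to FPKM without a log, and each library enters the sets of all 8 genes. That rate therefore does not hold for these sets. All 9 are high values, which upward-skewed FPKM values favour.

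M 24 h replicate 3 gave 4 of them: Lcn2 at 185 FPKM (next highest of the group 15.3), Muc1 at 93.0 FPKM (next 29.0), Car2 at 291 FPKM (next 105) and Car12 at 42.6 FPKM (next 13.6). It is the 1 AMH library with a high score of other oestrogen-responsive genes. Libraries rich in oviduct and ciliated markers gave 3 more: Clu at 59.8 FPKM in D 4 h replicate 4, Clu at 47.1 FPKM in DM 4 h replicate 5, and Lcn2 at 25.1 FPKM in DM 24 h replicate 4. Ltf stood at 77.6 FPKM in M 4 h replicate 1 (next 20.0), and Aqp5 at 18.7 FPKM in D 4 h replicate 2 (next 7.10), the library with the highest squamous marker score. The cause of these values was not tested.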

How the results depend on the processing

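The number of the 8 genes called depended on the fit. Without a filter it was 0 for M against C at 4 h and 0 for D against C at 24 h, where more genes are tested. With only the groups compared it was 6 for M against C at 4 h, 3 for DM against C at 4 h, 0 for D against C at 24 h and 0 for DM against C at 24 h. With array weights it was 5 for M against C at 4 h, 7 for M against C at 24 h, 3 for DM against C at 4 h, 3 for DM against D at 24 h, 3 for D against C at 24 h, 4 for C between the times and 1 for the difference of the doxorubicin effect between the times. Without the high-oestrogen libraries it was 5 for M against C at 4 h, 3 for DM against C at 4 h, 0 for DM against C at 24 h and 1 for C between the times, and 3 log2 changes that were called in either fit turned sign: Car12 in D against C at 24 h (0.10), Muc1 in DM against C at 24 h (0.083) and Muc1 in C between the times (-0.90). Uncalled changes turned sign there too. In all, the sign turned for 6 of the 8 genes in D against C at 24 h, 2 in DM against C at 24 h, 2 in M against C at 24 h and 7 in C between the times. Without the high-oviduct libraries it was 1 for M against C at 4 h and 0 for D against C at 24 h. The cause was not tested.

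With 1 library left out the count ranged from 0 to 3 for M against C at 4 h, 0 to 3 for D against C at 24 h, 0 to 6 for M against C at 24 h, 2 to 6 for DM against C at 24 h and 0 to 3 for C between the times, and stayed at 0 in every other comparison. D against C at 24 h had 0 calls without C 24 h replicate 1 or 2 or D 24 h replicate 2, 3 or 4, 2 without D 24 h replicate 1 and 3 without C 24 h replicate 3 or 5. C between the times had 3 without C 24 h replicate 3. The replicate block left the counts at 3 for M against C at 4 h, 5 for DM against C at 24 h, 1 for D against C at 24 h and 0 elsewhere. Same-numbered libraries, taken as deviations from their group means, correlated above 0.1 in at most 4 of 5 pairs of any comparison. Not every library correlated best with its own number. In C between the times the 5 values ran from -0.01 to 0.29, and other pairs averaged -0.04. In D between the times they ran from -0.004 to 0.35, and other pairs averaged -0.05. In DM between the times 0 pairs exceeded 0.1. Whether same-numbered libraries share anything beyond the number was not tested. The pseudocount of 0.1, the filter at 5 FPKM and median-of-ratios scaling moved no count by over 1.5 times. The scaling factors ran from 0.992 (M 4 h replicate 5) to 1.03 (C 24 h replicate 2), so that scaling could change little. The library total implied by the deposited FPKM was 0.859 of the rebuilt reads in C 24 h replicate 2 and 1.06 in DM 24 h replicate 5. The effect of those totals was not tested. The lowest value of any of the 8 genes rested on 153 reads. For Lcn2 the SD was 121% of the mean in C 24 h and 176% in M 24 h. What limits the calls was not tested.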

Other observations

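Acute-phase genes, which include Lcn2 in inflamed tissue, were examined as a list of 9 tested genes beside Lcn2. In D against C at 24 h 4 rose and 0 fell, where 8.44% of all genes were called higher and 9.95% lower. Among the 4 were the protease inhibitor Serpina3n (2.69 ± 0.50 on the log2 scale, limma adjusted p = 0.00077) and the serum amyloid Saa3 (2.27 ± 0.61, adjusted p = 0.013). Lcn2 had a log2 change of -1.82 there (adjusted p = 0.11). Without the high-oestrogen libraries Serpina3n was the 1 gene of the list called (3.53, adjusted p = 0.0073), Saa3 stood at 2.75 (adjusted p = 0.16) and Lcn2 at 0.93 (adjusted p = 0.61). In DM against C at 24 h Saa3 (3.05 ± 0.61, adjusted p = 0.00075) and Serpina3n (2.48 ± 0.50, adjusted p = 0.00083) rose where Lcn2 fell. The transcription factor genes Cebpb (-0.82 ± 0.26, adjusted p = 0.015) and Cebpd (-0.73 ± 0.25, adjusted p = 0.024) fell in that comparison. There 15.7% of all genes were called higher and 18.6% lower. Without the high-oestrogen libraries Serpina3n was again the 1 gene called (3.07, adjusted p = 0.019), Saa3 stood at 3.20 (adjusted p = 0.062), Cebpb at -0.09, Cebpd at -0.67 and Lcn2 at -0.92 (adjusted p = 0.61). In M against C at 24 h limma called 0 of the 9, and 0.462% of all genes.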
